A study of Mus musculus with 18 samples.

Results

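The genes described here are 40 cyclins, cyclin-dependent kinase (CDK) partners, CDK inhibitors and E2F regulators, followed across regulatory T cells (Treg cells) of NOD mice, an inbred strain prone to autoimmune diabetes. Members were found on the array as probe sets annotated with exactly 1 gene symbol, and where a gene had several such probe sets the one with the highest mean over 18 arrays was used. Of the 40 members 37 were measured in this way, out of 19752 genes. Ccnb1, Cdkn1a and Trp53 had no such probe set and were not analysed here. Ccnd1 and Cdc25c were measured but lay below the filter on low values, which left 35 tested members. A gene passed this filter if any group mean was at or above 7.05 on the log2 scale, the median over every value in the table. By role, the measured members comprised 5 G1 regulators, 15 regulators of S-phase entry and DNA replication, 10 regulators of G2 and mitosis, and 7 genes linked to quiescence.

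There were 6 groups of 3 arrays. In the spleen, cells came from female NOD mice aged 60 days that carried both a Foxp3-eGFP-Cre-ERT2 allele and a Rosa26-YFP reporter. These mice received 4 tamoxifen injections, either between days 0 and 10 (perinate-treated) or between days 35 and 45 (adult-treated), and the GFP+ cells were sorted on a FACSAria into YFP+ (tagged) and YFP- (untagged) fractions. A tagged cell or its precursor therefore expressed Foxp3 during the injection window, while the untagged fraction can hold Treg cells that arose outside the window and cells the recombinase missed. Because all 4 spleen groups were taken at 60 days, the time between tagging and sorting was longer for the perinate-tagged cells. In the thymus, CD4+ GFP+ cells were sorted on a MoFlo from male NOD mice, either 4 days old (the perinate thymus group) or 5 weeks old (the adult thymus group). Sex, sorter, organ and age cannot be told apart between spleen and thymus, and the labels do not say whether the 3 arrays of a group come from separate animals, so p-values measure the spread between these samples only.

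Cells enter the division cycle when cyclin D with CDK4 or CDK6, and then cyclin E with CDK2, phosphorylate the retinoblastoma family of pocket proteins and free the E2F transcription factors to switch on genes of DNA replication. Cyclin A and cyclin B with CDK1 then carry the cell through G2 and mitosis, under a transcription programme driven by B-Myb and Foxm1. CDK inhibitors of the INK4 and Cip/Kip families and the pocket proteins hold cells out of the cycle, and some of these inhibitors are themselves E2F targets. Most T cells in the periphery are quiescent, while a fraction of Treg cells divides at any time.

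Foxp3, the lineage factor of Treg cells, had group means of 11.95 to 12.37 in all 6 groups on the log2 scale. Among markers of other cells, Ms4a1 and Cd79a (B cells), Lyz2 (myeloid cells) and Rag1, Rag2 and Dntt (immature thymocytes) had group means between 4.07 and 6.89, beside a background level of 3.95 to 6.3 taken from Y-linked genes on female arrays and Xist on male arrays. Other markers of these lists were higher, with group means of 8.74 to 9.55 for Cd79b (B cells), 7.42 to 7.96 for Cd68 (myeloid cells) and 9.75 and 10.36 for Cd8a in the thymus groups. The width of the array distributions (interquartile range of log2 values) ran from 2.49 to 2.88 in the adult-tagged and from 2.94 to 3.12 in the perinate-tagged arrays, and from 2.08 to 2.82 in adult and 3.00 to 3.06 in perinate thymus. Perinate-tagged replicate 2 went against its label, with Y-linked genes raised and Xist low, and the counts that rest on it are also given without it. Differences were tested with limma, with p-values adjusted by Benjamini-Hochberg over all genes of a fit and called at 0.05, and every level below is on the log2 scale. In these bulk samples a larger share of dividing cells and more transcript per cell cannot be told apart.

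Promoters are shown because members of one class moved together. The 5 chosen, from the RefSeq promoter table, are those of the S and G2/M members with the largest differences between tagged groups among those whose promoter holds at least 1 searched motif, so that a match in each of the 5 was a condition of the choice. Ccna2 differed more than E2f8 but is not shown, as it had either no promoter entry or no match. Each run covers 200 bases before the transcription start in build GRCm38.p6, read 5′ to 3′ on the gene's strand, with matches to an E2F site, a CHR element or a CCAAT box in capitals.
Ccnb2: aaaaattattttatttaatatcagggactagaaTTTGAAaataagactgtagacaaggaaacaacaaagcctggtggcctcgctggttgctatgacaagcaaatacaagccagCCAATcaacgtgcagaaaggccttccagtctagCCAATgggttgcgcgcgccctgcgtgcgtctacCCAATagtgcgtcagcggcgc
E2f8: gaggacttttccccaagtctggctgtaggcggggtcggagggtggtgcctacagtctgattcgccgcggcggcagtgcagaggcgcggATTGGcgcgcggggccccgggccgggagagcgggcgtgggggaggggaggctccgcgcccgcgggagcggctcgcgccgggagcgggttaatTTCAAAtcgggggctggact
Cdk1: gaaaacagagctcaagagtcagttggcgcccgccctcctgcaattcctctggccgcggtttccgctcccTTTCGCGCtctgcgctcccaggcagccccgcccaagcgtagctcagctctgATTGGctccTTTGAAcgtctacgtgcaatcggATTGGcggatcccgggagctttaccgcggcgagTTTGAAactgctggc
Cdkn3: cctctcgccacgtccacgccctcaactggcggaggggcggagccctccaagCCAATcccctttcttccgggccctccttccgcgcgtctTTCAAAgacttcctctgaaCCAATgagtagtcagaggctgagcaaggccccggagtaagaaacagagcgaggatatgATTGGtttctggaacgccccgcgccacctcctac
Cks2: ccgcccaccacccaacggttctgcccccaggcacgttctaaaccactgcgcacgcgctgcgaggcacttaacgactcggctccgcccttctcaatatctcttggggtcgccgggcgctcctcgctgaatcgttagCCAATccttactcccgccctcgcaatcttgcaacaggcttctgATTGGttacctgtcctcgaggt

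These runs lie at chr9:70421555-70421754 (minus strand) for Ccnb2, chr7:48881597-48881796 (minus) for E2f8, chr10:69352913-69353112 (minus) for Cdk1, chr14:46760341-46760540 (plus) for Cdkn3 and chr13:51645032-51645231 (plus) for Cks2. The searches covered both strands, and no match of one motif overlapped a match of another in the 5 runs. The E2F site was searched as TTTCGCGC, TTTGGCGC, TTTCCCGC or TTTGCCGC. It occurred in 495 of all 27025 genes with a promoter entry (1.8%), where a match in any entry of a gene counted. It was found in 6 of 13 S-class members with an entry (Cdk2, Cdc25a, E2f3, E2f7, Tfdp1 and Rbl1), in 1 of 8 G2/M members (Cdk1), and in 0 of 3 G1 and 0 of 8 quiescence members. The CHR element, through which MuvB complexes act on late cell cycle genes, was searched as TTTGAA or TTCGAA and occurred in 15.4% of these genes. It was found in 4 of 8 G2/M members (Ccnb2, Ccnf, Cdk1 and Cdkn3), in 5 of 13 S members (Skp2, Cks1b, E2f2, E2f3 and E2f8) and in 0 of the G1 and quiescence members. The CCAAT box occurred in 32.7% of all genes with an entry, in 7 of 8 G2/M members, 9 of 13 S members, 3 of 8 quiescence members and 1 of 3 G1 members. A forkhead site, searched as GTAAACA, occurred in 2.8% of all genes with an entry and in 0 members. Promoter entries existed for 32 of the 40 members, the 3 members without a measured probe set included.

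Perinate-tagged and adult-tagged spleen cells were compared to ask whether Treg cells differ by tagging window in mice of the same age. The adult-tagged cells can include Treg cells that arose before the adult window and still expressed Foxp3, so time of origin is not isolated. S-phase and G2/M regulators were higher in the perinate-tagged cells and G1 regulators did not pass the test. Of the 35 tested members, 26 were higher and 0 lower, beside 16% higher and 3.5% lower among all 10350 genes. The calls comprised 14 of 15 S members (median difference 1.14), 8 of 9 G2/M members (1.66), 4 of 7 quiescence members (0.53) and 0 of 4 G1 members (0.18), where the median over all genes was 0.12. Without perinate-tagged replicate 2 the same 26 members were called, beside 15.3% of all genes higher and 3.87% lower, and their differences changed by at most 0.19. Scaling moved the balance over all genes: 1658 were higher and 362 lower as deposited, 1067 and 901 after quantile normalization, and 913 and 1368 after centring on the median of the tested genes, which shifted the all-gene median from 0.12 to -0.04 and -0.095. Centring on the median of all probe sets moved it the other way, to 2005 higher and 179 lower with a median of 0.205. The members counted 24 higher after quantile normalization, 23 higher and 1 lower (Cdkn1b) after centring on the tested genes, and 27 higher after centring on all probe sets.

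**Figure D1:**
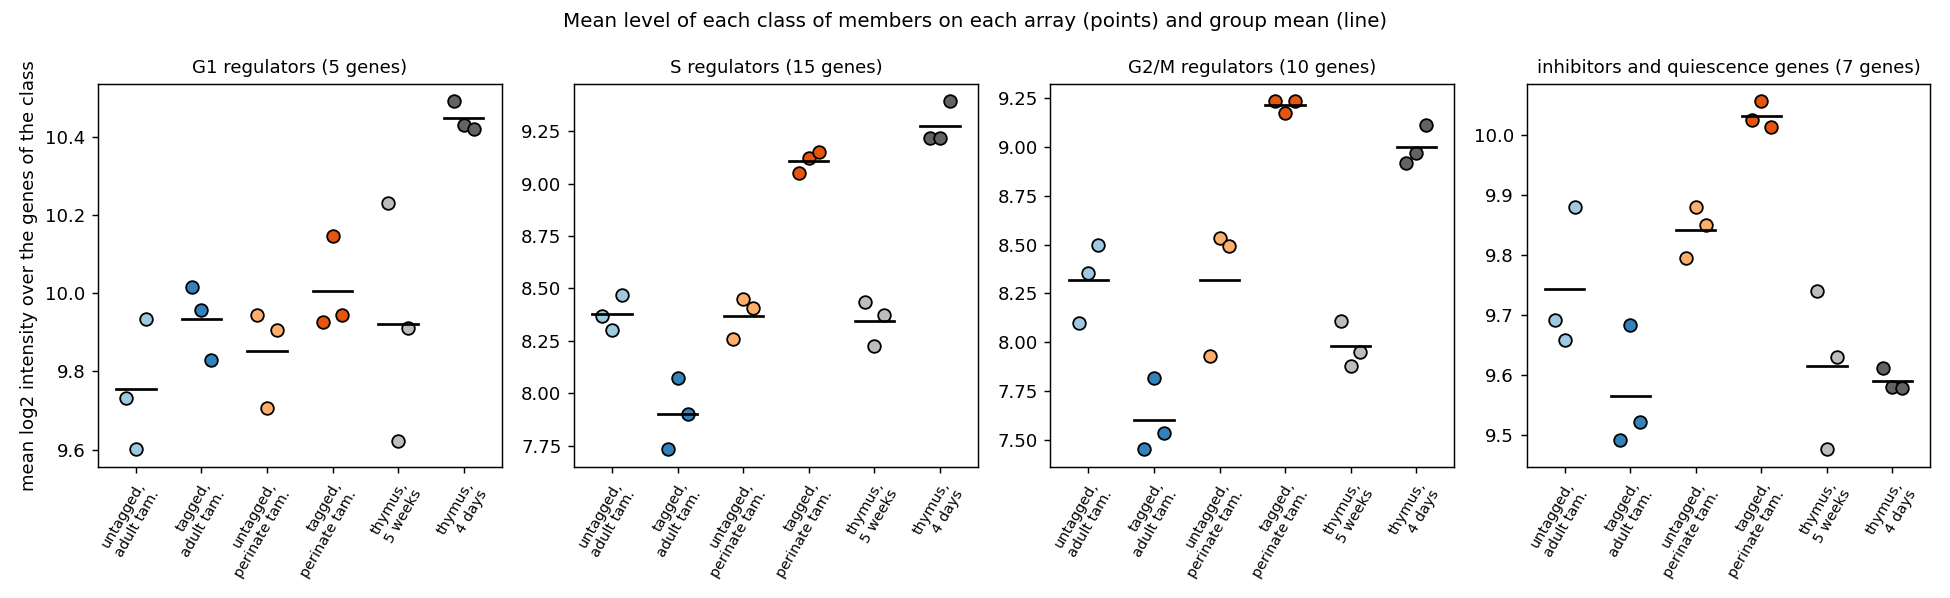
Mean log2 level of each class of members on each array (y axis), by group (x axis; tam. stands for tamoxifen), with the group mean as a bar and a separate scale in each panel. S and G2/M means are highest in perinate-tagged spleen and perinate thymus and lowest in adult-tagged spleen, while the G1 and quiescence means span a narrower range.

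Among the G1 regulators, Ccnd2 (cyclin D2) read 11.30, 11.90 and 11.75 in perinate-tagged replicates 2, 4 and 5 and 11.46, 11.29 and 11.28 in adult-tagged replicates 1, 2 and 3, groups that overlapped. The difference was 0.30 ± 0.20 (SE, n = 3 and 3, limma adjusted p = 0.284). Cdk4, the catalytic partner of cyclin D, differed by 0.05 with a 95% interval of -0.23 to 0.33, and Ccnd3 differed by -0.12 with an interval of -0.52 to 0.28. Cdk6 differed by 0.37 (adjusted p = 0.19). Ccnd1 (cyclin D1) had group means of 6.49 to 6.79, little above the background level of 3.95 to 6.3, and was not tested.

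Among the S members, Ccna2, encoding the cyclin A of somatic cells, had the largest difference. It read 11.52, 11.11 and 11.09 in the perinate-tagged and 8.17, 9.33 and 8.55 in the adult-tagged arrays, which do not overlap. The perinate-tagged mean was 5.88-fold higher (difference 2.56 ± 0.27, n = 3 and 3, limma adjusted p = 1.6e-05). E2f8, an atypical E2F that represses transcription, read 9.33, 8.83 and 8.91 against 6.50, 7.24 and 6.53 and was 4.83-fold higher (limma adjusted p = 5.42e-06, n = 3 and 3). Cks1b, a small CDK-binding subunit that also helps Skp2 recognise p27, read 9.82, 9.86 and 9.89 against 7.62, 8.38 and 8.14 and was 3.51-fold higher. Ccne2 (cyclin E2) read 8.09, 7.94 and 8.24 against 6.18, 6.62 and 6.59, a 3.09-fold difference, while its paralogue Ccne1 was 1.98-fold higher. The tagged groups did not overlap for any of the 15 S members, nor for 31 of the 35 tested members. The share without overlap over all genes is not given here, so this is not set apart from other genes.

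The E2F factors rose by different amounts. The activators E2f1, E2f2 and E2f3 were 2.21-, 2.68- and 2.50-fold higher in perinate-tagged cells, and the atypical repressor E2f7 was 1.88-fold higher, all called. E2f2 had the tightest values, 9.44, 9.53 and 9.51 against 8.04, 8.01 and 8.15. A second probe set for E2f3 gave a difference of 0.52, where the chosen one gave 1.32. Tfdp1, the dimerisation partner of the E2Fs, rose by 0.56, and Rbl1 (p107), a pocket protein and itself an E2F target, rose by 0.57. Fbxo5 (Emi1), an inhibitor of the anaphase-promoting complex, rose by 1.21, Cdk2 by 0.80 and Cdc25a, a phosphatase that activates CDKs, by 0.64. Skp2, the F-box protein that targets p27 for degradation, was the S member that did not pass (0.23 ± 0.13, adjusted p = 0.215).

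Among the G2/M members, Ccnb2 (cyclin B2) read 11.66, 11.50 and 11.63 in the perinate-tagged and 8.31, 9.51 and 9.29 in the adult-tagged arrays. On the deposited linear scale its mean intensity was 3103 ± 183 (SD, n = 3) against 559 ± 215, and the fit gave a 5.89-fold difference (limma adjusted p = 2.94e-05, n = 3 and 3). Cdk1, the kinase that drives mitotic entry, read 9.94, 9.61 and 9.79 against 7.41, 7.78 and 7.59 and was 4.55-fold higher (limma adjusted p = 2.37e-06, n = 3 and 3). Cdkn3, a phosphatase that dephosphorylates CDKs, read 8.62, 8.69 and 8.68 against 6.33, 7.02 and 6.63 and was 4.00-fold higher. Adult-tagged replicate 1 was the lowest of the 6 tagged arrays for all 3 genes.

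Cks2, the paralogue of Cks1b, was 3.52-fold higher, with differences of 1.82 to 1.99 over its 3 probe sets. Ccnf, an F-box protein named as cyclin F, read 8.50, 8.81 and 8.64 against 7.02, 7.15 and 6.80 and was 3.17-fold higher. Foxm1, the forkhead activator of mitotic genes, was 2.84-fold higher, Wee1, the kinase that restrains CDK1, 2.54-fold and Cdc25b, the phosphatase that opposes Wee1, 2.39-fold. Cdc25b read 10.48, 10.48 and 10.49 in the perinate-tagged arrays against 9.06, 9.43 and 9.18. Mybl2 (B-Myb) did not pass, at 0.48 ± 0.18 (adjusted p = 0.08). Cdc25c was below the filter, with group means of 5.52 in adult-tagged to 6.86 in perinate thymus.

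**Figure D2:**
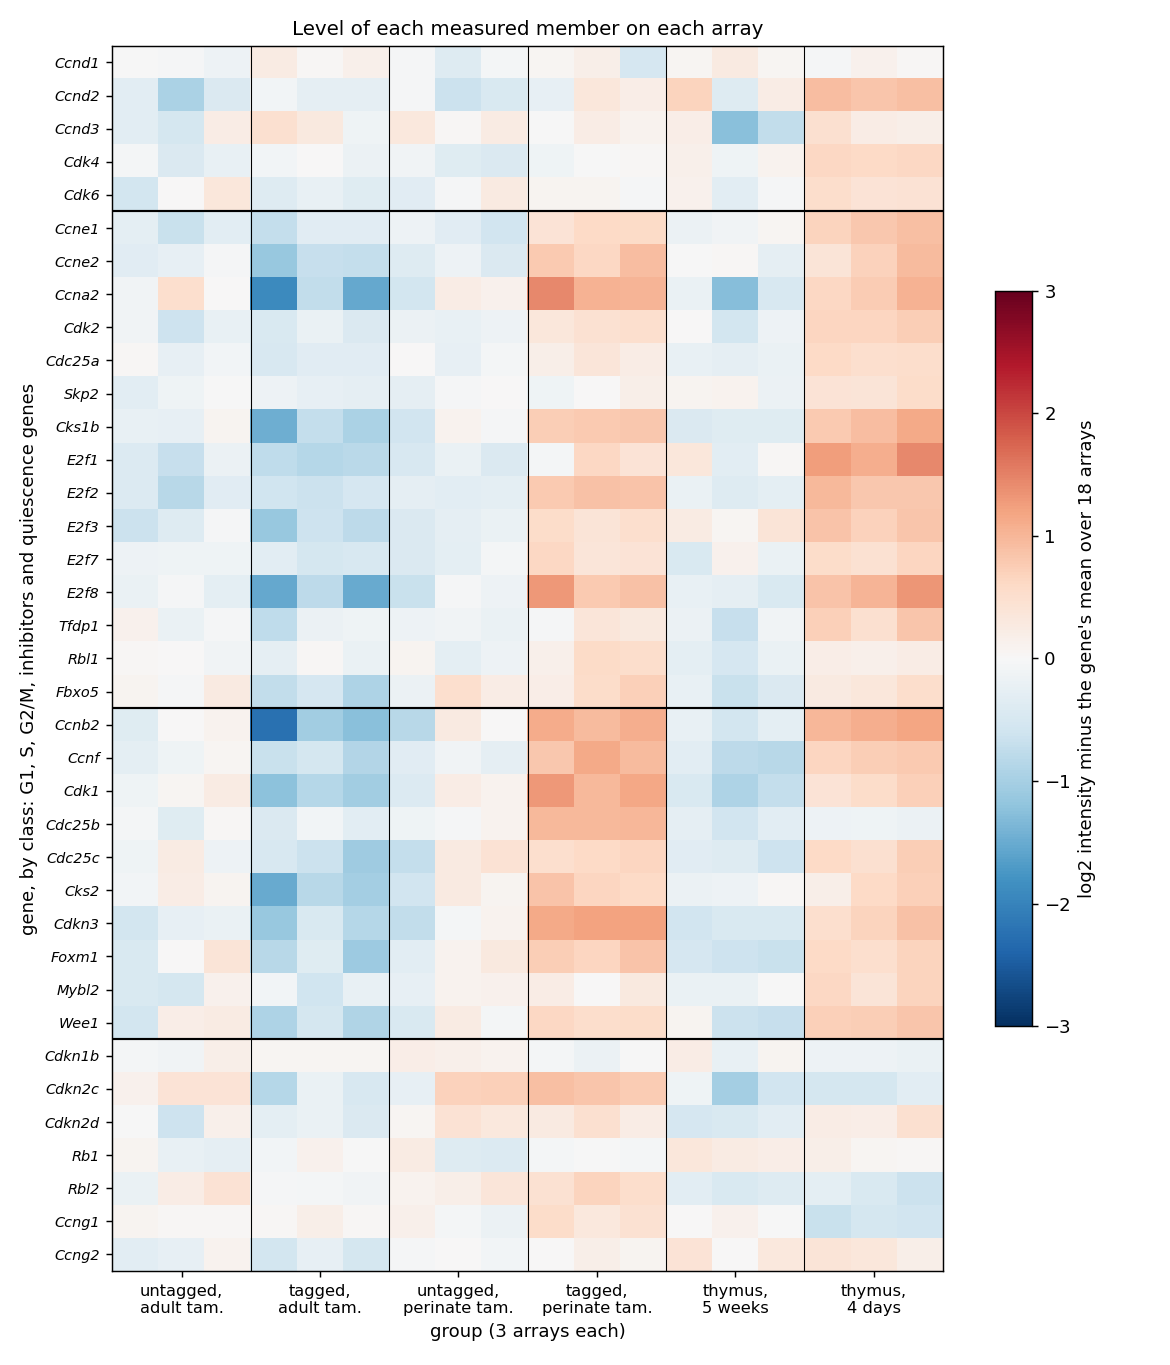
Level of each of the 37 measured members on each of the 18 arrays, as the log2 difference from that gene's mean over the 18 arrays, with members ordered by class. Red is above and blue below the gene's mean, and tam. stands for tamoxifen; the S and G2/M blocks are mostly red in perinate-tagged spleen and perinate thymus (4 days) and mostly blue in adult-tagged spleen.

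The quiescence-linked genes divided. Cdkn2c (p18-INK4c), an inhibitor of CDK4 and CDK6, read 8.62, 8.54 and 8.49 in perinate-tagged and 6.87, 7.53 and 7.25 in adult-tagged arrays, a 2.52-fold difference (limma adjusted p = 0.000886, n = 3 and 3). Its relative Cdkn2d (p19-INK4d) was 1.54-fold higher (adjusted p = 0.0225). Rbl2 (p130), the pocket protein of the repressor complex of resting cells, read 10.89, 11.09 and 10.95 against 10.40, 10.38 and 10.32 and was 1.52-fold higher (adjusted p = 0.0115). Ccng2, an unconventional cyclin linked to arrest, was 1.44-fold higher (adjusted p = 0.0124). Ccng1, a p53 target, narrowly missed the threshold and was not called, at 0.35 ± 0.12 (adjusted p = 0.0505).

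Cdkn1b (p27-Kip1) and Rb1, both textbook brakes on the cycle, were at high levels in every group. Cdkn1b read 10.69, 10.57 and 10.73 in perinate-tagged and 10.80, 10.80 and 10.79 in adult-tagged arrays, and the difference of -0.13 had a 95% interval of -0.37 to 0.11. Its other probe set gave a difference of 0.64, so its direction is not settled. Rb1 differed by -0.06, with an interval of -0.40 to 0.29.

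The calls for Tfdp1, Rbl1, Cdkn2d, Rbl2 and Ccng2 were those most easily lost under other settings. With the width of each array's distribution as a covariate, 17 of the 26 calls held, and 9 did not. The share of all genes called under the covariate is not given here, so the 17 are not set apart from other genes. For the 9 calls that were lost, the differences under the covariate were 1.08 for Wee1, 1.04 for Cdkn2c, 0.55 for Cdk2, 0.55 for Cdc25a and 0.50 for Rbl1. They were 0.45 for Rbl2, 0.32 for Tfdp1, 0.27 for Ccng2 and 0.25 for Cdkn2d.

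**Figure D3:**
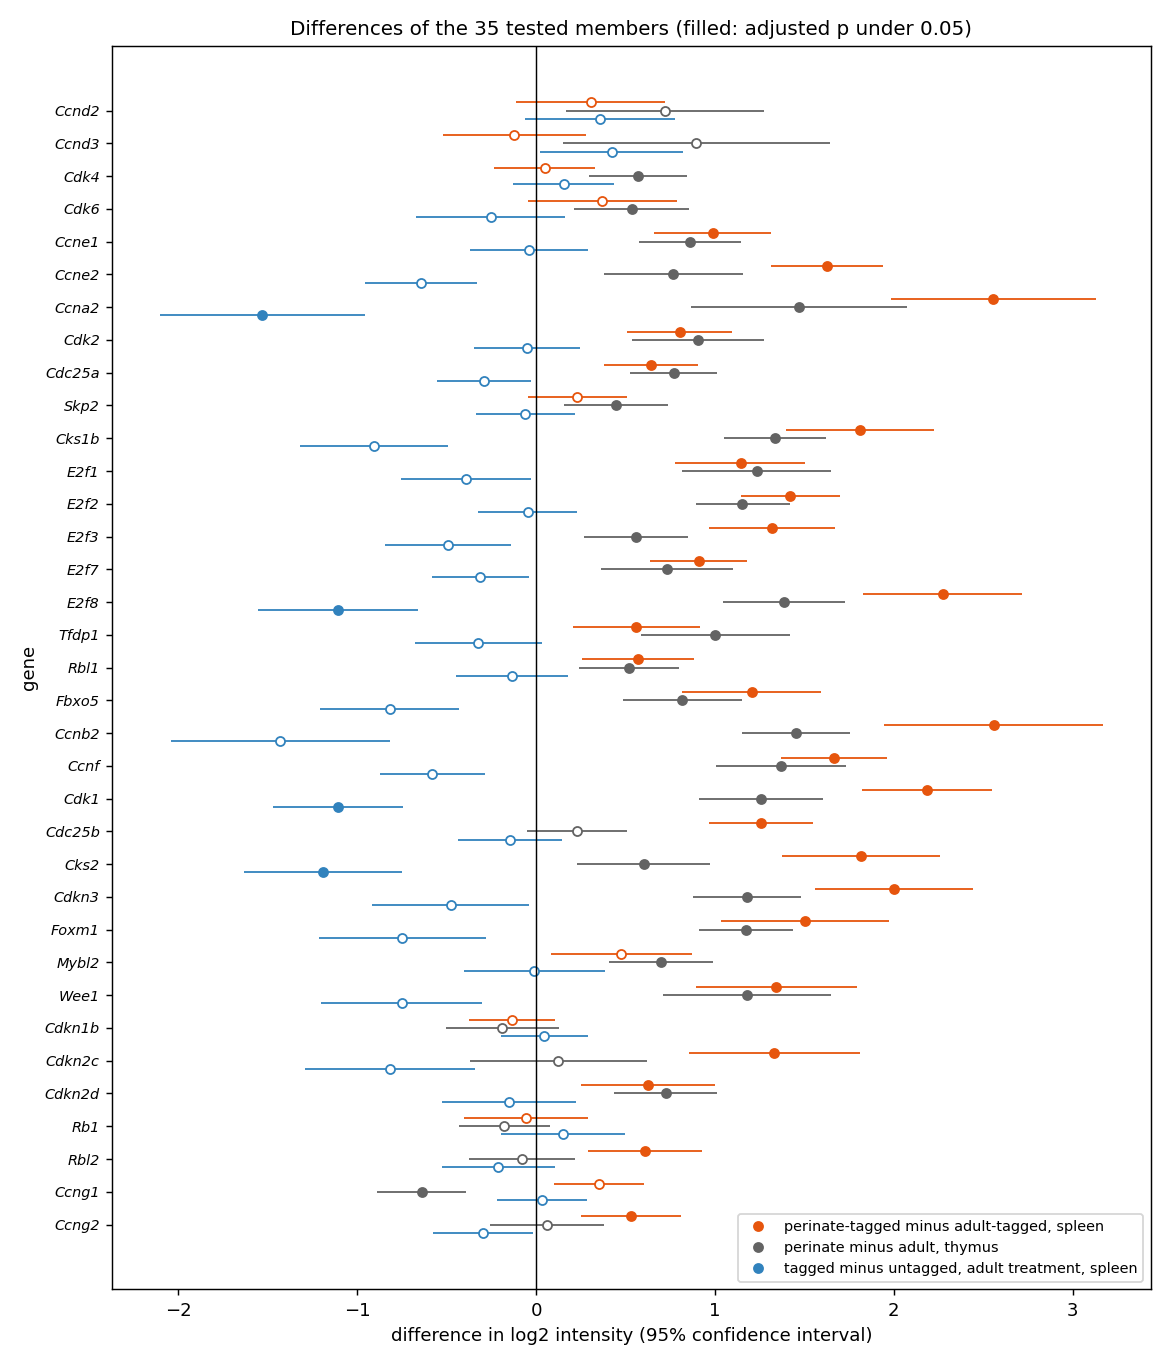
Difference in log2 level (x axis) of each of the 35 tested members, with its 95% interval, for perinate-tagged minus adult-tagged spleen (orange), perinate minus adult thymus (grey) and tagged minus untagged cells of adult-treated mice (blue). Filled points have an adjusted p under 0.05; S and G2/M members lie right of 0 in orange and grey, while 4 of the blue points are filled, all left of 0.

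The untagged spleen cells were compared to ask whether these genes differed with the age at tamoxifen treatment outside the tagged fraction. The untagged fractions can also differ in which cells the tagging removed, so treatment age is not isolated. Between untagged perinate-treated and untagged adult-treated cells 0 of 35 members were called, as were 0% of all genes by limma, of which 380 had an unadjusted p under 0.05. With the replicate number as a block over these 6 arrays, 49 genes and 0 members were called. The median difference over the members was 0.05. Ccna2 read 9.53, 10.29 and 10.21 in untagged perinate-treated replicates 3, 4 and 5 and 9.98, 10.58 and 10.09 in untagged adult-treated replicates 3, 4 and 5. Cdk1 read 8.22, 8.85 and 8.74 against 8.51, 8.70 and 8.89. The ranges overlapped for both genes.

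The difference between tagged groups was then set against that between untagged groups in one test. By this interaction 20 of 35 members were called, all with the larger difference in the tagged cells, beside 4.29% of all genes in that direction and 0.599% in the other. They comprised 11 of 15 S members, 8 of 9 G2/M members (median 1.78), 1 of 7 quiescence members (Cdkn2c, 1.26 ± 0.32, adjusted p = 0.0323) and 0 of 4 G1 members. The interaction was 2.76 ± 0.38 for Ccna2, 2.65 ± 0.41 for Ccnb2, 2.38 ± 0.30 for E2f8 and 2.28 ± 0.24 for Cdk1. Without perinate-tagged replicate 2, 19 members and 0 quiescence members were called. All-gene shares were then 4.65% with the larger difference in the tagged cells and 0.628% the other way. The Cdkn2c call was lost in 11 of 23 alternatives and that of Cdc25a (adjusted p = 0.0495) in 19 of 23. With the replicate number as a block over the 12 spleen arrays, 15 members were called, and the calls over all genes fell from 506 to 274. Over all genes the split was 444 and 62 as deposited and 409 and 156 after quantile normalization. It was 368 and 171 after centring on the tested genes and 412 and 30 after centring on the median of all probe sets. After each rescaling 19 members were called.

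For the perinate-treated mice, the tagged fraction was next set against the untagged fraction of that treatment. Tagged cells had 18 members higher and 0 lower, beside 5.49% and 1.86% of all genes. The calls comprised 11 of 15 S members (median 0.73), 6 of 9 G2/M members (1.00), 1 of 7 quiescence members and 0 of 4 G1 members. Cdkn3 was 2.68-fold higher (limma adjusted p = 0.000836, n = 3 and 3), Ccnf 2.29-fold and E2f2 2.20-fold. The quiescence member was Ccng1, which read 12.14, 11.92 and 12.05 in tagged and 11.74, 11.55 and 11.42 in untagged arrays (0.47 ± 0.12, adjusted p = 0.028). The Ccng1 call was lost in 8 of 18 alternatives. Cdkn2c was not called here. Without perinate-tagged replicate 2 the count was 15, of which 4 were G2/M and 0 quiescence members, and without replicate 5 it was 11. All-gene shares without replicate 2 were 4.66% higher and 1.32% lower. Calls over all genes ran from 299 to 1001 over the 6 fits that each left out 1 array. Over all genes 568 were higher and 192 lower as deposited, and 520 and 384 after quantile normalization. The counts were 563 and 351 after centring on the tested genes and 507 and 96 after centring on the median of all probe sets.

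Within adult-treated mice the tagged cells had 4 members lower and 0 higher, beside 0.271% and 0% of all genes. Ccna2 was 2.89-fold lower (adjusted p = 0.0314), Cks2 2.28-fold (adjusted p = 0.0307), Cdk1 2.15-fold (adjusted p = 0.0257) and E2f8 2.15-fold (adjusted p = 0.0427). Ccnb2 read 8.31, 9.51 and 9.29 in tagged and 10.19, 10.57 and 10.65 in untagged arrays, and its difference of -1.43 ± 0.29 did not pass (adjusted p = 0.0545). The count was unstable. It was 0 without any one of adult-tagged replicates 1 or 3 or untagged adult-treated replicates 4 or 5, it was 13 without untagged adult-treated replicate 3, and it was 0 with array width as a covariate. Calls over all genes ran from 0 to 774 over the 6 fits that each left out 1 array, beside 28 in the main fit.

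These comparisons share arrays, so their values are placed side by side rather than counted as separate evidence. For Cdk1 the 4 spleen means on the deposited scale were 194 ± 25 (SD, n = 3) in adult-tagged, 418 ± 54 in untagged adult-treated, 396 ± 87 in untagged perinate-treated and 883 ± 99 in perinate-tagged cells. The untagged means differed by less than their spread. For 29 of the 35 tested members (82.9%) the perinate-tagged mean was the highest and the adult-tagged mean the lowest of the 4 spleen groups, as for 2443 of 10350 genes (23.6%). Without perinate-tagged replicate 2 it was again 29 of 35, beside 25.2% of all genes. This order held for 15 of 15 S members, 9 of 9 G2/M members, 4 of 7 quiescence members and 1 of 4 G1 members.

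**Figure D4:**
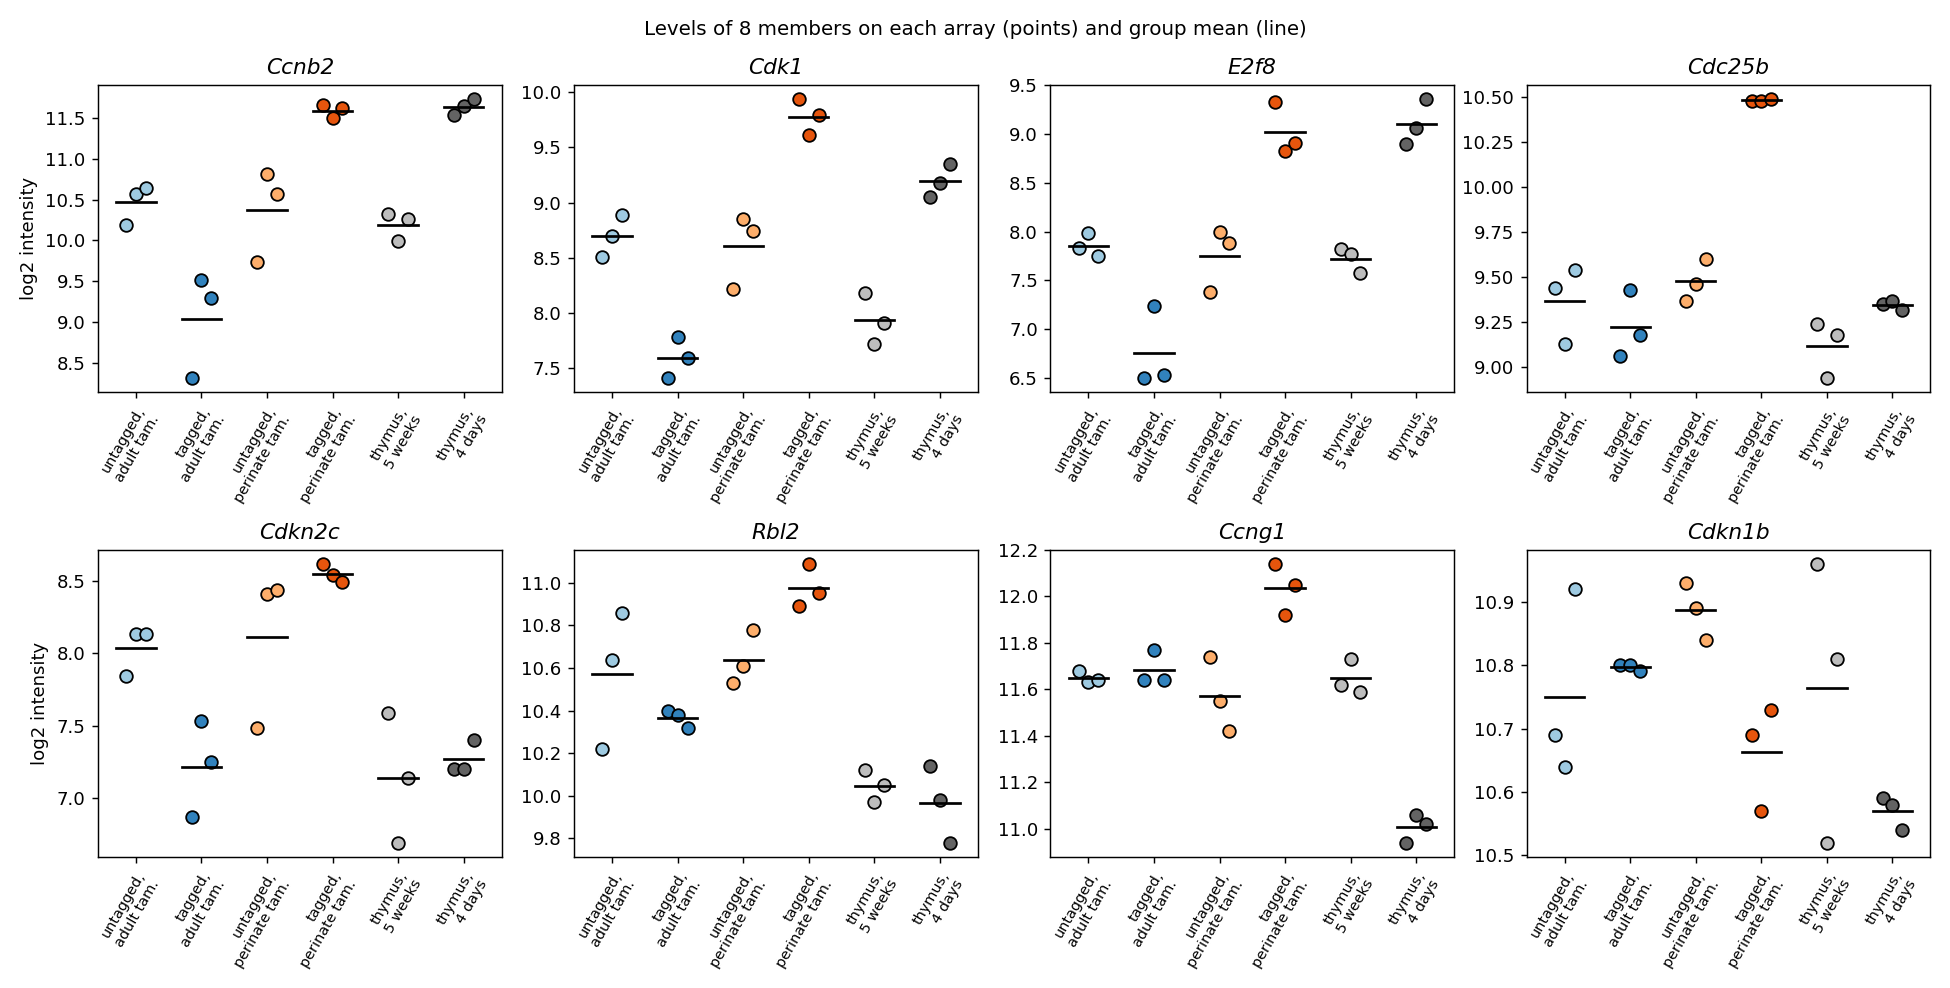
Log2 levels (y axis) of 8 members chosen after their values were seen, in the 6 groups (x axis), with a point for each array, a bar for the group mean and a separate scale in each panel. Ccnb2, Cdk1 and E2f8 are highest in perinate-tagged spleen and perinate thymus, and Cdc25b is high in perinate-tagged spleen alone among the 6 groups. Cdkn2c is low in both thymus groups and in adult-tagged spleen, Rbl2 is lowest in the thymus groups, and Ccng1 is lowest in perinate thymus.

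In the thymus, perinate and adult Treg-lineage cells were compared to ask whether the difference was present at the site of origin. Of the 35 members 26 were higher and 1 lower in the perinate thymus, beside 18.5% and 5.84% of all 10650 genes. All 15 S members were higher (median 0.86), as were 8 of 9 G2/M members (1.18), 2 of 4 G1 members and 1 of 7 quiescence members, and 1 quiescence member was lower. The median over all genes was 0.17. All-gene counts of 1967 higher and 622 lower became 1208 and 1050 after quantile normalization, 1178 and 1631 after centring on the tested genes and 2206 and 309 after centring on the median of all probe sets. The corresponding member counts were 20 and 2, 19 and 3, and 26 and 1; Ccng1 was lower under each, joined by Cdkn1b after quantile normalization and by Cdkn1b and Rb1 after centring on the tested genes.

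Ccna2 read 10.71, 10.85 and 11.11 in perinate thymus replicates 1, 2 and 3 and 9.88, 8.80 and 9.59 in adult thymus replicates 1, 2 and 3, a 2.77-fold difference (limma adjusted p = 0.008, n = 3 and 3). Ccnb2 was 2.74-fold, E2f8 2.62-fold, Ccnf 2.59-fold and Cks1b 2.52-fold higher. Adult thymus replicate 2, which had the narrowest distribution of the 18 arrays, was the lowest of the 6 thymus arrays for Ccna2. Without it the count of called members was 29. Calls over all genes also moved, from 707 to 4388 over the 6 fits that each left out 1 thymus array, beside 2589 in the main fit.

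The G1 kinases passed in this organ. Cdk4 read 12.14, 12.13 and 12.14 against 11.67, 11.40 and 11.62 (0.57 ± 0.12, adjusted p = 0.014), and Cdk6 was 1.45-fold higher (adjusted p = 0.0292). Ccnd2 differed by 0.72 ± 0.24 (adjusted p = 0.0598) and Ccnd3 by 0.90 ± 0.32 (adjusted p = 0.0745). Tfdp1 was 2.00-fold higher, Skp2 1.36-fold and Mybl2 1.62-fold, and all 3 were called.

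Of the quiescence members, Cdkn2d was 1.65-fold higher (adjusted p = 0.00735). Ccng1 was 1.56-fold lower in the perinate thymus, at 10.94, 11.06 and 11.02 against 11.62, 11.73 and 11.59 (adjusted p = 0.00674). Cdkn2c read 7.20, 7.20 and 7.40 against 7.59, 6.69 and 7.14, which overlap (0.12 ± 0.22, adjusted p = 0.667). Rbl2 differed by -0.08 and Ccng2 by 0.06. Cd8a, a marker of CD8 and double-positive thymocytes, was at 9.75 in perinate and 10.36 in adult thymus (adjusted p = 0.00735) and at 6.5 to 6.8 in spleen. Of the 8 immature thymocyte markers, which include Cd8a, 3 were tested and Cd8a was the one called. The mean over the 8 ran from 6.90 to 7.01 in perinate and from 7.23 to 7.31 in adult arrays. Their part in the thymus result was not tested.

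A test over all 18 arrays set the tagged spleen difference against the thymus difference. It called 8 members, all with the more positive difference in spleen, beside 3.89% of all 10889 genes in that direction and 2.56% in the other. Ccng1 had the largest evidence, with a difference of 0.35 in tagged spleen and -0.64 in thymus (0.99 ± 0.15, adjusted p = 0.000505). Cdc25b (1.03 ± 0.18, adjusted p = 0.00162), Cks2 (1.22), Cdkn2c (1.21), Cdk1 (0.93), Ccne2 (0.86), E2f3 (0.76) and Rbl2 (0.69) were the others. The calls of Cdkn2c, E2f3 and Rbl2 were each lost in 14 of 22 alternatives. The count was 3 without perinate-tagged replicate 2 and ranged from 2 to 11 when each array was left out in turn. Calls over all genes ran from 393 to 1069 over those fits, beside 703 in the main fit. Age, sex, organ and sorter all differ across this contrast and cannot be told apart.

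Other genes of the pathway, from lists chosen for their textbook roles, were counted by the same tests, beside the shares of all genes given above: 16% higher and 3.5% lower in the tagged comparison, 18.5% and 5.84% in the thymus, and 0.271% lower within adult-treated mice. Of 24 tested E2F target genes 24 were higher in perinate-tagged than adult-tagged cells (median 1.08), and 19 were higher in perinate thymus. Rrm2 and Rrm1, the subunits of ribonucleotide reductase, rose by 2.27 and 1.33 in perinate-tagged cells, Cdc6, a replication licensing factor, by 1.54 and Prim1, a primase subunit, by 1.44. The filter on low values kept a gene if any group mean reached 7.05. A gene could thus be tested because of the group in which it was high. Cdc6 had means of 7.87 in perinate-tagged, 6.34 in adult-tagged and 6.58 in untagged perinate-treated cells. All 24 measured E2F target genes were tested. Of 24 tested G2/M target genes 24 were higher in perinate-tagged cells (1.99) and 24 in perinate thymus, and 7 were lower in tagged than untagged cells of adult-treated mice. Top2a, the topoisomerase of dividing cells, rose by 2.49 in perinate-tagged cells and Cenpe, a kinetochore motor, by 2.28. Of 30 other CDK, Rb and E2F pathway genes 10 were higher and 1 lower in perinate-tagged cells, among them Dtl, a substrate receptor of a ubiquitin ligase active in S phase (2.12), and Cdc20, an activator of the anaphase-promoting complex (1.31). Lin9, a MuvB subunit, rose by 0.85. Without perinate-tagged replicate 2 the counts in the tagged comparison were 22 of 24 E2F targets, 24 of 24 G2/M targets and 11 of 30 other pathway genes higher.

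Checkpoint genes had 5 of 17 higher and 1 lower in perinate-tagged cells, with Chek1, the kinase of the replication checkpoint, at 1.85. All 17 measured checkpoint genes were tested, but entry could again depend on the group in which a gene was high. Chek2, called higher, had means of 7.09 in perinate-tagged, 6.18 in adult-tagged and 6.20 in untagged perinate-treated cells. Of 21 tested p53 target genes 8 were higher and 0 lower in perinate-tagged cells (median 0.28), including Sesn2, Gtse1, Polk and Plk3, and 1 of 22 was higher and 1 lower in perinate thymus. Of 19 transcription regulators linked to quiescence 0 were higher and 3 lower in perinate-tagged cells. These were Bach2 (-0.97), a repressor that keeps T cells in a resting state, Foxp1 (-0.71) and Tsc22d3 (-0.57). Without perinate-tagged replicate 2, 3 of 16 checkpoint genes, 9 of 21 p53 targets and 1 of 19 quiescence regulators were higher, and 1, 0 and 3 were lower.

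Markers of other cells were few among the tested genes. Cd79b, a B cell receptor subunit, was higher in perinate-tagged than adult-tagged cells by 0.66 and Cd68, a myeloid marker, by 0.54. The mean over 5 B cell markers ran from 6.33 to 6.47 in perinate-tagged and from 6.31 to 6.40 in adult-tagged arrays, and the mean over 7 myeloid markers from 6.14 to 6.42 and from 6.08 to 6.23. Ms4a1, Cd79a and Lyz2 were near the background level.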

How the data were processed

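RNA of sorted Treg cells was hybridised to 18 arrays (Affymetrix Mouse Gene 1.0 ST), 3 in each of 6 groups. The authors deposited linear probe set intensities (6.81 to 18850) made, per the submitters' processing notes, by RMA in Affymetrix Power Tools; versions and build are not given in the sources used here. Precision is limited by the number of arrays. Values were log2 transformed with no further normalization. The filter kept 10350 genes in the fit of 12 spleen arrays, 10650 in that of 6 thymus arrays and 10889 in that of all 18. Each fit used lmFit and eBayes of limma 3.58.1 (R 4.3.3), with a coefficient for each group and two-sided tests, Benjamini-Hochberg adjustment and a threshold of 0.05. With 3 arrays against 3, an exact permutation test reaches no p below 0.1. The fits were tested on simulated data. Members, lists and tests were chosen with earlier results of these data known. All members are accounted for; from other lists up to 4 genes with the smallest p past the threshold per comparison could be named, besides defining markers. Promoters shown are those of S and G2/M members that hold a searched motif and have the largest tagged differences. The series text also describes chimeras, which are not analysed here. Replicate numbers were taken to pair untagged arrays of both treatments, but no main test used them as a block. Same-numbered deviations there correlated at 0.62, 0.13 and 0.45, a hint that the labels do not give. Unlike-numbered deviations correlated at 0.28 and 0.29 between replicates 4 and 5, and from -0.63 to -0.27 otherwise. Same-numbered tagged and untagged arrays correlated at -0.106 and -0.001 after perinate treatment (replicates 4 and 5) and at 0.064 after adult treatment (replicate 3). The labels do not say whether such arrays share an animal, and the tests of tagged against untagged cells treat them as independent. The alternatives were other scalings, filters, probe set rules, priors, array weights, array width as covariate, replicate block and leaving out each array.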

Additional observations from a re-analysis of the deposited data

Results flagged for a closer look

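The difference between tagged groups exceeded the difference between untagged groups for 20 members in limma's interaction test, and a second test placed the tagged spleen difference above the thymus difference for 8 members. The values of both tests are differences between 2 log2 differences, adjusted over all genes. In the first test the largest were Ccna2 (2.76, adjusted p = 0.000577), Ccnb2 (2.65), E2f8 (2.38), Cdk1 (2.28), Cks2 (1.97) and Cdkn3 (1.90). Cks1b (1.85), Ccnf (1.78), Ccne2 (1.74), Foxm1 (1.47), Wee1 (1.40), E2f3 (1.27), E2f2 (1.19, adjusted p = 0.00134) and Cdc25b (1.15) followed. Cdkn2c (1.26) was the one quiescence gene. Fbxo5 (1.12), E2f1 (1.09), E2f7 (1.04), Ccne1 (0.92) and Cdc25a (0.64, adjusted p = 0.0495) were smaller.

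In the second test Cks2 (1.22), Cdkn2c (1.21), Cdc25b (1.03), Ccng1 (0.99), Cdk1 (0.93), Ccne2 (0.86), E2f3 (0.76) and Rbl2 (0.69, adjusted p = 0.0496) were called. Of these, Ccng1 and Cdc25b also passed with the replicate number as a block within each organ.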

How the results depend on the processing

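No called difference of a member changed sign under the alternatives run. Counts of called members stayed within 1.5 times the values above for the tagged difference, the interaction and the thymus except for 17 with array width as covariate, in place of 26, in the tagged difference. Leaving out each array gave 21 to 26 in the tagged difference, 15 to 20 in the interaction, 11 to 17 within perinate-treated mice and 18 to 29 in the thymus. Calls over all genes in these fits ran, in the same order, from 906 to 2052, 279 to 679, 299 to 1001 and 707 to 4388. The untagged comparison gave 0 members under each alternative. Within adult-treated mice the 4 calls became 2 after quantile normalization, 2 with a replicate block over 12 arrays, 0 with array width as covariate, 8 in a fit of only the 6 arrays compared, and 0 to 13 when each array was left out. Alternatives added after seeing the data were centring on the tested genes, leaving out both arrays with the narrowest spleen distributions, and the other lists without perinate-tagged replicate 2. Within adult-treated mice, centring on the tested genes gave 1 and leaving out both arrays with the narrowest spleen distributions gave 0. The 8 calls of spleen against thymus became 3 with median centring, 5 with no filter on low values, 21 with array weights, 15 with array width as covariate and 2 with a replicate block within organ, and 2 to 11 when each array was left out. All-gene calls with array weights and with array width as covariate are not given here, so 21 and 15 are not set apart from other genes. They fell to 5 or fewer without any one of adult-tagged replicates 1 or 3, perinate-tagged replicates 2, 4 or 5, adult thymus replicate 3 or perinate thymus replicates 1, 2 or 3. The cause was not tested. Over all genes, the replicate block over 12 spleen arrays lowered the calls from 2020 to 655 in the tagged difference, where the block left 21 members called, and from 506 to 274 in the interaction, where it left 15. That block spans the untagged arrays, whose numbers were taken to pair, and the tagged arrays, whose numbers were not. Array signal limits Ccnd1 and Cdc25c, which lay near background.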
